A study of Sus scrofa with 24 samples.

Results

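Fatty acid synthesis and desaturation in pig loin muscle were followed through 7 genes: SCD, FASN, ELOVL6, DGAT2, ME1, SCD5 and MID1IP1. Every probe set to which the array annotation gives one of these symbols was taken, whatever its signal. That gave 14 of the 24123 probe sets of the array, and all 7 genes, among 6765 gene symbols that the annotation holds, had at least 1. FASN and ELOVL6 each had 4 probe sets, ME1 had 2 and the other genes had 1. Probe sets of 1 gene are numbered by falling mean signal, so that FASN-1 is the brightest of FASN. Of the 14 probe sets, 13 passed the filter on low signals and were tested. FASN-4 lay under the filter level, a signal of 86.3, in 21 of 24 pigs and is given only as values. FASN, ELOVL6 and ME1 each give several of the 13. Counts and medians over the 13 thus weigh these genes more than the others.

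Animals make fatty acids from acetyl-CoA. Malic enzyme, encoded by ME1, supplies part of the NADPH, acetyl-CoA carboxylase makes malonyl-CoA, and fatty acid synthase (FASN) joins the units to palmitate. ELOVL6 lengthens palmitate to stearate, stearoyl-CoA desaturase (SCD) puts in the double bond that makes oleate, and DGAT2 adds the last fatty acid of a triglyceride. In pigs this synthesis takes place mainly in adipose tissue, and loin muscle holds fat cells between its fibres.

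The animals were crossbred pigs (Landrace × Large White × Duroc) that entered the trial at about 71 kg and 130 days of age. Their feed held coconut oil, olive oil, soybean oil or beef tallow at 3.0%, and no group without added fat was analysed here. Longissimus dorsi, the main loin muscle, was sampled from 24 pigs, 1 array each: 3 barrows (castrated males) and 3 gilts (young females) per fat, hence 6 pigs per fat and 12 per sex. The labels describe pens of 3 pigs but not which pen a sampled pig came from, so pigs were treated as independent. Pigs are called by the number in their sample title, gilts 1 to 12 and barrows 13 to 24. No intact males were analysed, so sex cannot be told apart from castration here, nor from the order of these numbers. Differences between the sexes below are those between barrows and gilts.

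Values are linear probe set signals, and tests were made on log2(signal + 1) with limma over all 14399 probe sets that passed the filter. A probe set was called when its Benjamini-Hochberg adjusted p was under 0.05. Array medians lay between 139 and 174, and pairs of arrays correlated at 0.863 to 0.967. The arrays least like the rest were those of pigs 12, 11 and 16, with a mean r of 0.907, 0.925 and 0.927. Skeletal muscle markers were bright on every array, with CKM, the muscle creatine kinase, never under 36038. The number of pigs limits the precision.

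The first question is whether the synthesis genes differ with the kind of fat. With coconut oil, 0 of the 13 tested probe sets were called against beef tallow, while 1.12% of all tested probe sets were (161, of which 37 were higher and 124 lower). Lower calls made up 77% of the 161, but 38.4% of calls after each array was centred on its median. Unadjusted p was under 0.05 for 11 of the 13, and for 19.8% of all tested probe sets. The median difference of the 13 was -1.45 on the log2 scale, and that of all tested probe sets was -0.04. Differences were negative for SCD, SCD5, DGAT2 and every tested probe set of FASN and ELOVL6. They were near 0 for ME1, and MID1IP1 alone had a clearly positive one. Adjusted p ran from 0.0588 for ELOVL6-4 to 0.998 for ME1-2. That centring left 0 of the 13 called and shifted the middle of all differences up by 0.13. With arrays weighted by quality, 1264 of all 14399 tested probe sets (8.78%) and 8 of the 13 were called, the 8 being FASN-1, FASN-3, ELOVL6-1, ELOVL6-2, ELOVL6-4, DGAT2, SCD5 and MID1IP1.

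The second question is whether they differ with sex. Barrows and gilts differed for 5 of the 13 probe sets, against 4.77% of all tested probe sets (687). All 5 rose in barrows: SCD, FASN-1, both probe sets of ME1 and MID1IP1. The differences of the 13 had a median of 0.64, against -0.02 for all tested probe sets, and 12 of the 13 were positive. SCD5 was the exception, with a negative difference that did not pass. FASN-2 and FASN-3 had the sign of FASN-1 but did not pass. The 4 probe sets of ELOVL6 and that of DGAT2 had unadjusted p above 0.05. The calls of both ME1-2 and MID1IP1 held under all 34 alternatives, and that of ME1-1 under all but the one without a signal filter. SCD and FASN-1 lost their calls more often, as given below.

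**Figure D1:**
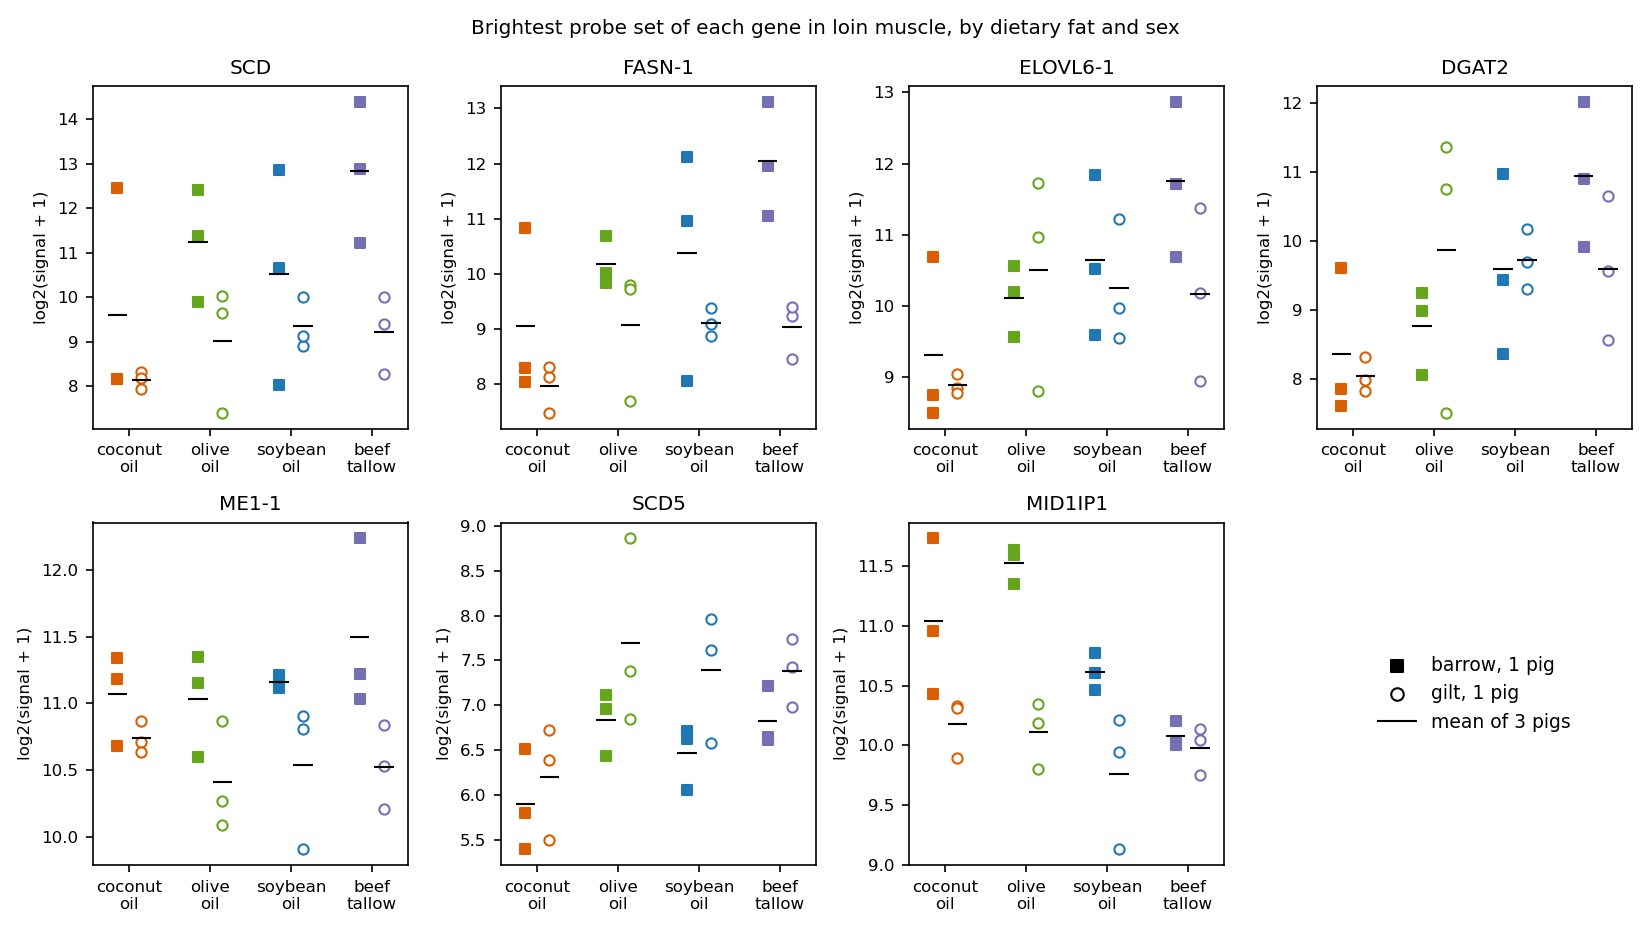
Signals of the brightest probe set of each gene on the log2(signal + 1) scale (vertical axes differ between genes), by dietary fat, with barrows as filled squares, gilts as open circles and the mean of 3 pigs as a bar. For SCD, 5 of 6 pigs fed coconut oil lay between 243 and 321 in signal and pig 23 at 5596, and for MID1IP1 the 3 barrows fed olive oil lay above all gilts.

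**Figure D2:**
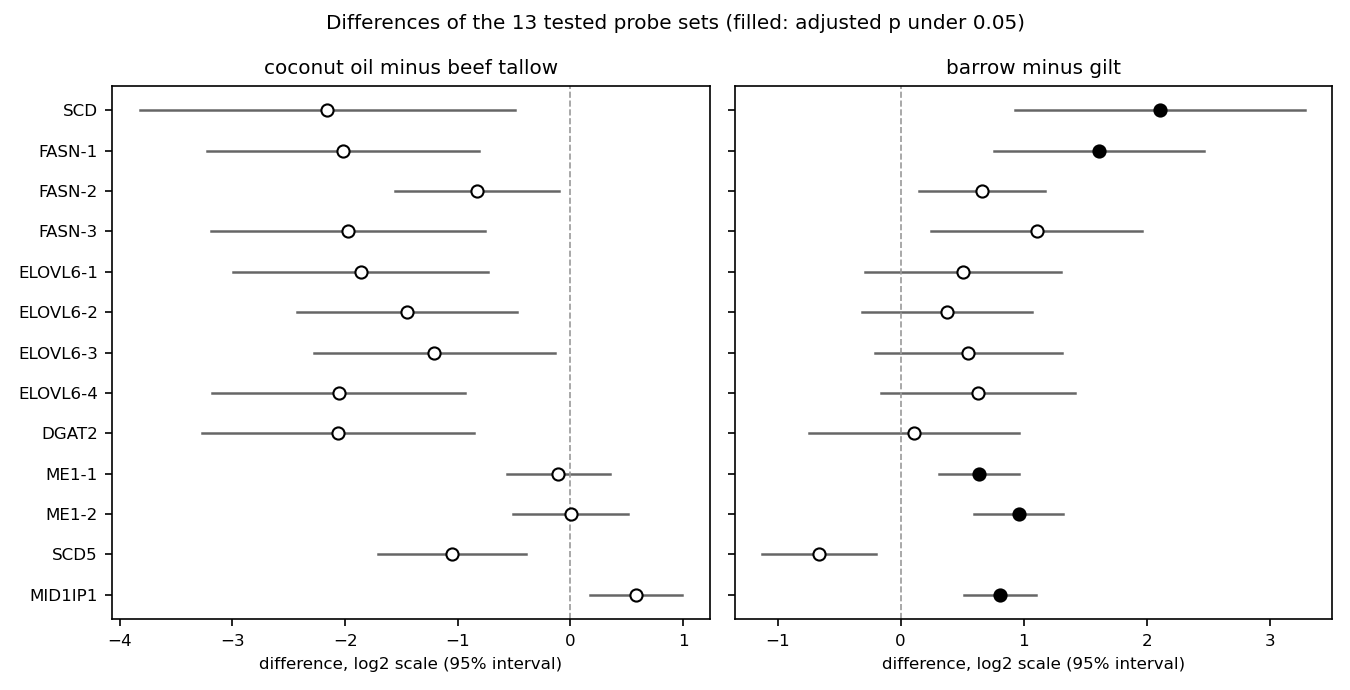
Differences on the log2 scale with 95% intervals for the 13 tested probe sets, coconut oil minus beef tallow on the left and barrow minus gilt on the right (filled points passed an adjusted p of 0.05). No point is filled on the left, where SCD is at -2.16, and 5 are filled on the right, where SCD is at 2.11.

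FASN carries out the assembly of palmitate. FASN-1 had signals of 261, 313 and 1829.8 in barrows and 177, 279 and 315 in gilts fed coconut oil. With beef tallow it had 2109, 3948 and 8929 in barrows and 349, 604 and 670.5 in gilts. The barrows on beef tallow lay highest, and 5 of 6 pigs on coconut oil were under every pig on beef tallow, with pig 23 the exception. The difference was -2.02 ± 0.58 on the log2 scale (SE, n = 6 pigs per fat), a 4.06-fold lower level with coconut oil that did not pass (limma adjusted p = 0.0725). Without pig 23 the difference was -2.47, and without pig 21, the barrow at 8929, it was -1.75.

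With olive oil, FASN-1 stood at 913, 1031 and 1636 in barrows and at 207, 847 and 889.6 in gilts. With soybean oil it stood at 265, 1988 and 4439 in barrows and at 469, 543 and 662 in gilts. The 2 oils thus lay between coconut oil and beef tallow in their means, 9.62 for olive and 9.74 for soybean oil on the log2 scale, against 8.51 with coconut oil and 10.53 with beef tallow. Each step in that order was smaller than a pooled SD of 1.41 over the pigs of a fat, which includes the difference between the sexes. Within a single sex and fat the SDs of FASN-1 ran from 0.25 in gilts to 2.09 in barrows, both with soybean oil. The steps were not set against a pooled SD within sex.

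Over the 4 fats, FASN-1 ranged from 261 to 8929 in barrows with a median of 1733, and from 177 to 889.6 in gilts with a median of 506. Of 12 barrows, 9 lay above every gilt, and the other 3 (pigs 13, 15 and 20) lay below the gilt median. FASN-1 rose in barrows by 1.62 ± 0.41 (SE, n = 12 per sex), a 3.06-fold difference (limma adjusted p = 0.0284). The call was lost when any one of pigs 3, 14, 17 and 21 was left out, with adjusted p from 0.0512 to 0.0574, and without a signal filter (adjusted p = 0.0758). Barrow minus gilt differences were 1.08 with coconut oil, 1.10 with olive oil, 1.26 with soybean oil and 3.01 with beef tallow.

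The other FASN probe sets were dimmer. FASN-2 and FASN-3 followed FASN-1 over the pigs (Pearson r = 0.821 and 0.913, n = 24). Their barrow minus gilt differences were 0.66 ± 0.25 and 1.11 ± 0.41, both with limma adjusted p = 0.124. With coconut oil, FASN-3 was under the filter level in every pig but pig 23, at 32.6, 33.7 and 489.6 in barrows and 76.2, 83.4 and 83.7 in gilts, against 98.9 to 1355 with beef tallow. Its coconut oil minus beef tallow difference was -1.97 ± 0.58 (limma adjusted p = 0.0777), and that of FASN-2 was -0.83 ± 0.35 (adjusted p = 0.192). FASN-4 ranged only from 8.06 to 103 and did not follow the others, with Pearson r from 0.037 to 0.153.

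MID1IP1 encodes a small protein that, in mouse, binds acetyl-CoA carboxylase and promotes its assembly into filaments. Its signals were 1378, 1984 and 3411 in barrows and 949, 1269.6 and 1289 in gilts fed coconut oil. With olive oil they were 2614, 3089 and 3189.5 in barrows and 891, 1168 and 1302 in gilts. Soybean oil gave 1412, 1559.9 and 1748 in barrows, with 558, 983 and 1183 in gilts, and beef tallow gave 1027, 1035 and 1179.7 in barrows, with 860.5, 1053 and 1124 in gilts. On each of the 3 oils all 3 barrows lay above all 3 gilts. On beef tallow the sexes overlapped.

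Averaged over the fats, MID1IP1 rose in barrows by 0.81 ± 0.14 (SE, n = 12 per sex), a 1.75-fold difference (limma adjusted p = 0.0031), and 11 of 12 barrows lay above the gilt mean. By fat, the barrow minus gilt difference was 0.86 with coconut oil, 1.41 with olive oil, 0.85 with soybean oil and 0.10 with beef tallow. An interaction test, which asks whether the sex difference depends on the fat, called 0 of the 13 probe sets with limma and 0% of all tested ones (895 at an unadjusted p under 0.05). MID1IP1 was the single member with an unadjusted p under 0.05 there (limma adjusted p = 0.778).

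Beef tallow gave the lowest mean of MID1IP1. Over both sexes its SD was 0.16 on the log2 scale with beef tallow, 0.65 with coconut oil and 0.80 with olive oil. These SDs include the difference between the sexes. Within 1 sex they were 0.11 in barrows and 0.20 in gilts on beef tallow, and 0.15 and 0.28 on olive oil. On coconut oil they were 0.66 and 0.25. The coconut oil minus beef tallow difference was 0.58 ± 0.20 (limma adjusted p = 0.11), and 5 of 6 pigs fed coconut oil lay above all 6 fed beef tallow. That difference was 0.41 without pig 23 and 0.74 without pig 20. Olive oil minus beef tallow was 0.79 ± 0.20, a 1.73-fold higher level that ranked 17 by p among all tested probe sets but did not pass (limma adjusted p = 0.462). Soybean oil minus olive oil was -0.63 ± 0.20 (limma adjusted p = 1).

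ME1 makes NADPH in the cytosol from malate. ME1-1 ranged from 1552 to 4833 in barrows with a median of 2300.3, and from 958 to 1917 in gilts with a median of 1632. All 12 barrows lay above the gilt mean on the log2 scale and 10 lay above every gilt. Barrow 18, at 1552, lay below the gilt median, and barrow 20, at 1643, lay close to it. ME1-1 rose in barrows by 0.64 ± 0.16, a 1.55-fold difference (limma adjusted p = 0.0232, n = 12 per sex). ME1-2 ranged from 300.5 to 1053 in barrows with a median of 449.8, and from 147 to 358 in gilts with a median of 233. Again 12 of 12 barrows lay above the gilt mean. Its difference was 0.96 ± 0.17, a 1.95-fold rise (limma adjusted p = 0.0047). On coconut, olive and soybean oil all 3 barrows lay above all 3 gilts for ME1-2, and on beef tallow barrow 16, at 309, lay among the gilts.

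All 4 fats overlapped for ME1. ME1-1 had medians of 1771 with coconut oil, 1708 with olive oil, 2069 with soybean oil and 1963 with beef tallow. Coconut oil minus beef tallow was -0.11 ± 0.22 for ME1-1, with a 95% interval from -0.56 to 0.35, and 0.00 ± 0.25 for ME1-2, with an interval from -0.51 to 0.52 (limma adjusted p = 0.824 and 0.998). For ME1-1 the interval leaves out the sizes estimated for FASN-1, SCD and DGAT2. Both probe sets were highest in pig 21, at 4833 and 1053.

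ELOVL6 extends palmitate by a pair of carbons. ELOVL6-1 had 358, 429 and 1649.9 in barrows and 435, 456 and 525.6 in gilts fed coconut oil. With beef tallow it had 1649.7, 3342 and 7495 in barrows and 488, 1158 and 2643 in gilts. Every pig on coconut oil was under the beef tallow mean, and 4 of 6 were under the lowest pig on beef tallow. Medians with olive and soybean oil were 1334 and 1235. The coconut oil minus beef tallow difference was -1.86 ± 0.54, a 3.64-fold lower level (limma adjusted p = 0.0755, n = 6 per fat), and it lay between -2.21 without pig 23 and -1.56 without pig 8.

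The 4 ELOVL6 probe sets were related over the pigs, with Pearson r from 0.777 to 0.909 between pairs (n = 24). Coconut oil minus beef tallow was -1.45 ± 0.47 for ELOVL6-2, -1.21 ± 0.51 for ELOVL6-3 and -2.06 ± 0.54 for ELOVL6-4 (limma adjusted p = 0.0988, 0.196 and 0.0588). ELOVL6-4 was dim, at 11.9 to 140.1 with coconut oil and 43.8 to 756 with beef tallow. With signals under the filter level set to that level its difference was -0.81. The barrow minus gilt differences of the 4 ran from 0.38 to 0.63, and none passed (limma adjusted p from 0.363 to 0.56).

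SCD makes oleate and palmitoleate. It had the widest range of the 14 probe sets, from 168 in gilt 7 (olive oil) to 21572 in barrow 21 (beef tallow), a 129-fold range. Its SD over the pigs, 1.92 on the log2 scale, was larger than that of 99.9% of the tested probe sets. With coconut oil it had 286, 286 and 5596 in barrows and 243, 289.7 and 321 in gilts. With beef tallow it had 2380.2, 7590.2 and 21572 in barrows and 308, 678 and 1024 in gilts. Apart from pig 23, the pigs fed coconut oil lay within a narrow band at the low end, and the barrows fed beef tallow lay above all gilts.

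The difference of SCD between coconut oil and beef tallow was -2.16 ± 0.80, a 4.47-fold lower level (limma adjusted p = 0.14, n = 6 per fat). It was -2.87 without pig 23 and -1.77 without pig 21, and it was called under none of 35 alternatives. With olive oil SCD stood at 953, 2668 and 5464 in barrows and 168, 805 and 1036 in gilts. With soybean oil it stood at 261, 1618 and 7435 in barrows and 479.6, 557 and 1022 in gilts. Each of these oils held pigs from both the low and the high end, and the 4 fats overlapped.

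Over all fats SCD ranged from 261 to 21572 in barrows with a median of 2524, and from 168 to 1036 in gilts with a median of 518. Of 12 barrows, 8 lay above every gilt. SCD rose in barrows by 2.11 ± 0.57, a 4.31-fold difference (limma adjusted p = 0.0369, n = 12 per sex). The call was lost without a signal filter (adjusted p = 0.0933) and when 1 of 14 of the 24 pigs was left out (pigs 1, 2, 3, 5, 6, 10, 11, 14, 17, 19, 21, 22, 23 and 24), with adjusted p from 0.0504 to 0.0713. The difference itself stayed between 1.75, without pig 23, and 2.13 in those cases. Barrow minus gilt was 1.45 with coconut oil, 2.21 with olive oil, 1.18 with soybean oil and 3.61 with beef tallow, the one fat on which the sexes did not overlap.

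SCD5 is a separate desaturase that is abundant in human brain. Its probe set was dim, under the filter level in 6 of 24 pigs. It had 41.2, 54.9 and 90.3 in barrows and 44.2, 83.2 and 105 in gilts fed coconut oil, against 97.3, 99.2 and 148 in barrows and 126, 171 and 213 in gilts fed beef tallow. Olive oil gave 85.5, 123 and 138 in barrows and 114, 166 and 464 in gilts. Soybean oil gave 65.7, 97.7 and 104 in barrows and 94.8, 196 and 249 in gilts. Again 5 of 6 pigs on coconut oil were under the lowest pig on beef tallow.

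For SCD5 the coconut oil minus beef tallow difference was -1.05 ± 0.32 (limma adjusted p = 0.0804), and -0.60 with low signals set to the filter level. Olive oil minus coconut oil was 1.21 ± 0.32, a 2.32-fold higher level that ranked 19 by p in that comparison and did not pass (limma adjusted p = 0.554). Barrow minus gilt was -0.66 ± 0.22, opposite in sign to SCD, and did not pass (limma adjusted p = 0.0901). Of 12 barrows, 11 lay below the gilt mean. Without gilt 7 the test called it lower in barrows.

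DGAT2 adds the third fatty acid to diacylglycerol. It had 196, 232 and 781 in barrows and 227, 252 and 320.3 in gilts fed coconut oil, against 967, 1909 and 4161 in barrows and 378, 761 and 1616 in gilts fed beef tallow. The sexes were mixed, all 6 pigs on coconut oil were under the beef tallow mean, and 5 were under the lowest pig on beef tallow. The difference was -2.07 ± 0.58, a 4.19-fold lower level (limma adjusted p = 0.0694, n = 6 per fat). It passed in 5 of 35 alternatives, among them those without pig 2, 7 or 12. With olive oil DGAT2 ran from 182 to 2624 and with soybean oil from 330.3 to 2015.

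The sexes overlapped in DGAT2, with medians of 654 in barrows and 698 in gilts. The barrow minus gilt difference was 0.11 ± 0.41 with a 95% interval from -0.75 to 0.96 (limma adjusted p = 0.917), and 6 of 12 barrows lay above the gilt mean. That interval leaves out the estimates for SCD and FASN-1 in the same comparison, 2.11 and 1.62. Whether the barrow minus gilt difference of DGAT2 differs from those of these genes was not tested. By fat, the barrow minus gilt difference of DGAT2 was 0.32 with coconut oil, -1.11 with olive oil, -0.13 with soybean oil and 1.35 with beef tallow. The interaction of fat and sex did not pass for DGAT2 (limma adjusted p = 0.815).

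In the remaining comparisons, limma called 0 of the 13 probe sets. Olive oil minus beef tallow called 0% of all tested probe sets (928 at an unadjusted p under 0.05) and soybean oil minus beef tallow called 0% (498 unadjusted). MID1IP1 was the single member with an unadjusted p under 0.05 in the first of these, and none was in the second. The median differences of the 13 were -0.54 and -0.43. Against coconut oil, olive oil called 0% (1275 unadjusted) and soybean oil 0% (1875 unadjusted). The medians of the 13 were 1.11 and 1.06, with 4 and 7 of them under an unadjusted 0.05. These comparisons share the pigs fed coconut oil or beef tallow, so they are not separate evidence. Soybean oil minus olive oil called 0% (458 unadjusted) and had a median of 0.12 over the 13. The mean of the 2 unsaturated oils minus that of the 2 more saturated fats called 0% (561 unadjusted) and had a median of 0.19. The test of any difference among the 4 fats called 0% (1676 unadjusted), with 8 of the 13 under an unadjusted 0.05 and the lowest adjusted p, 0.217, for MID1IP1.

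The order of the 4 fats was alike for SCD, FASN-1, ELOVL6-1 and DGAT2 at both ends, with coconut oil lowest and beef tallow highest. Steps are set against a pooled SD over the 6 pigs of a fat, which includes the difference between the sexes. Mean log2 levels of SCD were 8.87 with coconut oil, 9.93 with soybean oil, 10.13 with olive oil and 11.03 with beef tallow, and no step exceeded the pooled SD between pigs of 1.88. For ELOVL6-1 they were 9.10 with coconut oil, 10.30 with olive oil, 10.45 with soybean oil and 10.96 with beef tallow, and the first step alone exceeded the pooled SD of 1.05. For DGAT2 they were 8.21, 9.32, 9.66 and 10.27 in the same order of fats, with a pooled SD of 1.11. SCD5 had coconut oil lowest too but olive oil highest, at 6.06 with coconut oil, 6.93 with soybean oil, 7.11 with beef tallow and 7.27 with olive oil, and its first step exceeded the pooled SD of 0.66. MID1IP1 had 10.03 with beef tallow, 10.19 with soybean oil, 10.61 with coconut oil and 10.82 with olive oil, with every step under the pooled SD of 0.60. Within 1 sex and fat the SDs of MID1IP1 ran from 0.11 to 0.66. The means of ME1-1 lay closest together, between 10.72 with olive oil and 11.01 with beef tallow, with a pooled SD of 0.51.

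Within each sex there were 3 pigs per fat. The fit used 1 spread estimate per probe set over all 8 groups, so its SEs are the same in barrows and gilts. The SDs between pigs differed for some genes. For FASN-1 they were 0.44 and 0.505 in gilts on coconut oil and beef tallow, and 1.55 and 1.04 in barrows. For SCD they were 0.20 and 0.88 in gilts, and 2.47 and 1.59 in barrows. Tests in gilts thus rest partly on the scatter of barrows. In barrows, coconut oil minus beef tallow called 2.07% of all tested probe sets (298) and 0 of the 13. Unadjusted p was under 0.05 for 10 of the 13 and for 21.2% of all tested probe sets. FASN-1 came closest, with a difference of -2.98 ± 0.82 (limma adjusted p = 0.059, n = 3 per fat). SCD differed by -3.24 ± 1.13 and DGAT2 by -2.58 ± 0.82, while MID1IP1 differed by 0.96 ± 0.28 (limma adjusted p = 0.113, 0.0884 and 0.0681). Without pig 23 the difference of MID1IP1 in barrows was 0.62. In gilts the same comparison called 0% of all tested probe sets (677 unadjusted) and 0 of the 13. There were 2 of the 13 with an unadjusted p under 0.05, SCD5 and ELOVL6-4. The 3 gilts on coconut oil were all under the filter level for ELOVL6-4, whose difference in gilts was -1.76, but -0.31 with low signals set to that level. The differences in gilts were -1.06 ± 0.82 for FASN-1, -1.08 ± 1.13 for SCD, -1.55 ± 0.82 for DGAT2 and 0.20 ± 0.28 for MID1IP1. Without pig 8 those of SCD and DGAT2 were -0.69 and -1.02, and leaving out single pigs moved that of MID1IP1 to between 0.09 (pig 10) and 0.35 (pig 1). The test of the difference between the sexes called 0% (796 unadjusted) and 0 of the 13, with adjusted p from 0.856 to 0.964, so a difference between barrows and gilts in the response to fat was not shown. In barrows alone 5 of 9 fibroblast markers and 1 of 11 adipocyte markers fell as well, and in gilts 0 of either, with 3 and 0 at an unadjusted p under 0.05. Their part in these differences was not tested.

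Single pigs stood out across the genes. Pig 21, a barrow fed beef tallow, was highest for 11 of the 14 probe sets. Pig 23, a barrow fed coconut oil, was highest for MID1IP1 and stood well above the other pigs on its fat for SCD, FASN-1, FASN-3, ELOVL6-1 and DGAT2. Pig 20, also a barrow fed coconut oil, was lowest for 4 probe sets. Leaving out pigs 11, 12 and 16 together, chosen after seeing the data, left the same 5 probe sets called in barrow minus gilt and 0 in coconut oil minus beef tallow.

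The genes were then compared over the 24 pigs, with 1 probe set per gene. SCD and FASN-1 had the closest relation, with Pearson r = 0.961 and Spearman rho = 0.938 (permutation test, adjusted p = 5.53e-05 and 9.22e-05 over 83 correlations). It held without the 2 pigs farthest from the median of SCD (r = 0.939), within barrows (0.954) and gilts (0.897), and after the 8 group means were taken out (0.944). ELOVL6-1 and DGAT2 were as close, with r = 0.957 and rho = 0.934 (permutation test, adjusted p = 5.53e-05 and 9.22e-05), 0.987 within barrows and 0.953 within gilts. Between these pairs, r ran from 0.737 for SCD with DGAT2 to 0.851 for FASN-1 with ELOVL6-1, and without 2 pigs from 0.625 to 0.774. Within the 6 pigs on olive oil it ran only from 0.294 for SCD with DGAT2 to 0.62 for FASN-1 with ELOVL6-1. Within the other fats it ran from 0.779 to 0.975. Of all 21 pairs of genes, 11 had an adjusted p for r under 0.05.

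ME1-1, MID1IP1 and SCD5 were less closely related to these 4 genes over all pigs, with r between -0.267 and 0.549. ME1-1 correlated with SCD at r = 0.549 and rho = 0.417 (permutation test, adjusted p = 0.0142 and 0.0866), but at 0.313 without 2 pigs, 0.223 with the 8 group means taken out, 0.605 in barrows and -0.53 in gilts. FASN-1 and ME1-1 gave r = 0.496 and rho = 0.383 (permutation test, adjusted p = 0.0321 and 0.118), 0.218 without 2 pigs, 0.106 with the group means taken out, 0.575 in barrows and -0.655 in gilts. For neither pair did the relation hold in both sexes. MID1IP1 correlated with ME1-1 at r = 0.475 and rho = 0.527 (permutation test, adjusted p = 0.0422 and 0.0243). For this pair r was 0.549 without 2 pigs, 0.627 with the 8 group means taken out, -0.185 in barrows and 0.693 in gilts. SCD5 and ME1-1 were negatively related at r = -0.513 and rho = -0.578 (permutation test, adjusted p = 0.0291 and 0.0113). Their r was -0.412 with the group means taken out, 0.068 in barrows and -0.651 in gilts. SCD5 and SCD had r = 0.063 and rho = 0.116 (permutation test, adjusted p = 0.844 and 0.688), with 0.354 in barrows and 0.717 in gilts. DGAT2 and SCD5 gave r = 0.488 and rho = 0.437 (permutation test, adjusted p = 0.0348 and 0.0744), 0.463 without 2 pigs, 0.287 in barrows and 0.779 in gilts. ELOVL6-1 and SCD5 gave r = 0.396 and rho = 0.325 (permutation test, adjusted p = 0.109 and 0.212). Within gilts SCD5 correlated with SCD, FASN-1, ELOVL6-1 and DGAT2 at 0.705 to 0.779, and within barrows at 0.287 to 0.383.

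**Figure D3:**
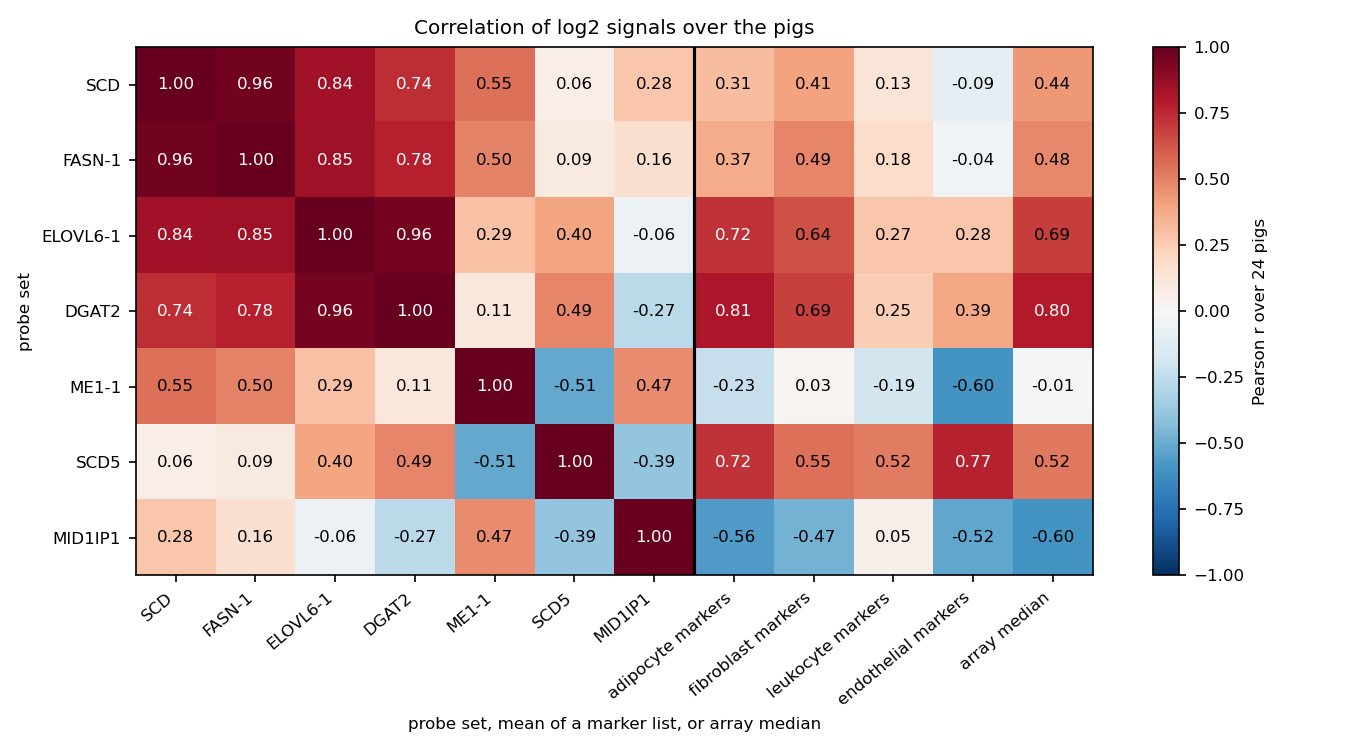
Pearson r over 24 pigs between the brightest probe sets of the 7 genes, and between each of them and the mean log2 level of 4 lists of cell type markers and the array median (red positive, blue negative). SCD, FASN-1, ELOVL6-1 and DGAT2 form a block with r from 0.737 to 0.961, and MID1IP1 is negative against the adipocyte markers (-0.56) and the array median (-0.60).

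Fat cells, fibroblasts, immune cells and vessels lie within a muscle sample. In such bulk tissue, fewer cells of a type and less RNA per cell cannot be told apart. None of the 11 tested adipocyte markers was at 0 on any array, but 6 of them were under the filter level on at least 1, down to 22.9 for RBP4, 30.2 for ADRB3 and 37.0 for PCK1. Of the defining ones FABP4, a fatty acid carrier, was at least 4728 and ADIPOQ, the adiponectin gene, at least 324. The mean log2 level of the 11 was 8.46 ± 0.37 with coconut oil, from 7.96 to 8.73, against 9.43 ± 0.70 with beef tallow, from 8.26 to 10.27 (SD, n = 6; exact permutation p = 0.02, adjusted p = 0.124 over 56 tests). One of the 11, FABP4, fell with coconut oil and 9 had negative differences. The 9 fibroblast markers averaged 10.47 ± 0.12 with coconut oil, from 10.31 to 10.59, against 11.27 ± 0.42 with beef tallow, from 10.72 to 11.82 (SD, n = 6; exact permutation p = 0.005, adjusted p = 0.0933), and 6 of the 9 fell. The 7 leukocyte markers averaged 8.79 ± 0.47 with coconut oil against 9.08 ± 0.31 with beef tallow (exact permutation p = 0.27, n = 6), and 0 of them were called by limma, 0 also at an unadjusted p under 0.05. The 9 endothelial markers averaged 9.34 ± 0.14 with coconut oil against 9.56 ± 0.22 with beef tallow (SD, n = 6; exact permutation p = 0.065, adjusted p = 0.285), with 0 called by limma and 1 at an unadjusted p under 0.05. The array median was 0.13 lower with coconut oil on the log2 scale (exact permutation p = 0.015, adjusted p = 0.12, n = 6). The part of these in the differences of the synthesis genes was not tested.

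Between the sexes the adipocyte and endothelial marker means were lower in barrows, where SCD, FASN-1, ME1 and MID1IP1 rose. The adipocyte markers averaged 8.80 ± 0.64 in barrows, from 7.96 to 10.03, against 9.29 ± 0.76 in gilts, from 8.26 to 10.62 (SD, n = 12; exact permutation p = 0.0662, adjusted p = 0.285). One of them, LIPE, the hormone-sensitive lipase, fell in barrows, by 1.26 ± 0.35 (limma adjusted p = 0.0444). The 9 endothelial markers averaged 9.41 ± 0.18 in barrows against 9.60 ± 0.19 in gilts (SD, n = 12; exact permutation p = 0.00975, adjusted p = 0.112). The fibroblast markers differed by -0.02 and the leukocyte markers by 0.06 (exact permutation p = 0.898 and 0.728). The part of these markers in the differences between the sexes was not tested.

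The 7 genes followed these markers to unequal degrees over the pigs. The adipocyte mean correlated with DGAT2 at r = 0.812 and rho = 0.791 (permutation test, adjusted p = 5.53e-05 and 0.000111), with 0.832 in barrows, 0.94 in gilts and 0.78 without 2 pigs. For ELOVL6-1 r was 0.725 and rho 0.696 (permutation test, adjusted p = 0.000356 and 0.00123), and for SCD5 r was 0.723 and rho 0.618 (permutation test, adjusted p = 0.00029 and 0.00581). For FASN-1 and SCD over all pigs r was 0.368 and 0.308, with rho 0.363 and 0.39, and neither passed (permutation test, adjusted p of r = 0.142 and 0.253). Within one sex both followed the adipocyte mean more closely. SCD did so at 0.62 in barrows and 0.934 in gilts, and FASN-1 at 0.754 and 0.835. With the 8 group means taken out r was 0.559 for SCD and 0.534 for FASN-1. MID1IP1 was negatively related, at r = -0.564 and rho = -0.616 (permutation test, adjusted p = 0.0131 and 0.00578), and at -0.05 once the 8 group means were taken out. The array median correlated with DGAT2 at r = 0.796 and rho = 0.781 (permutation test, adjusted p = 5.53e-05 and 0.000146), and with MID1IP1 at r = -0.60 and rho = -0.699 (permutation test, adjusted p = 0.00505 and 0.000622). It also passed for r with ELOVL6-1 (0.688), SCD5 (0.524) and FASN-1 (0.482), at permutation test adjusted p = 0.00101, 0.0225 and 0.0387. FASN-1 did not pass for rho (adjusted p = 0.0744). For SCD (0.437) and ME1-1 (-0.008) r did not pass. With the 8 group means taken out r was 0.795 for DGAT2, 0.725 for ELOVL6-1, 0.686 for SCD and 0.647 for FASN-1. It was 0.427 for SCD5, 0.035 for ME1-1 and -0.03 for MID1IP1. ME1-1 and the adipocyte mean had r = -0.234 and rho = -0.306 (permutation test, adjusted p = 0.398 and 0.243). The endothelial mean correlated with SCD5 at r = 0.769 and rho = 0.737 (permutation test, adjusted p = 5.53e-05 and 0.000306), at 0.324 in barrows and 0.955 in gilts. With ME1-1 it gave r = -0.60 and rho = -0.545 (permutation test, adjusted p = 0.00517 and 0.0189), and -0.536 with the group means taken out. The fibroblast mean correlated with DGAT2 at r = 0.687, ELOVL6-1 at 0.637, SCD5 at 0.548 and FASN-1 at 0.49. All passed for r (permutation test, adjusted p from 0.000943 to 0.0345), though FASN-1 did not for rho (adjusted p = 0.0718). With the group means taken out r was 0.307, 0.26, 0.429 and 0.133 in the same order. For MID1IP1 r was -0.473 (permutation test, adjusted p = 0.0417), and for SCD and ME1-1 it was 0.405 and 0.027 and did not pass.

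**Figure D4:**
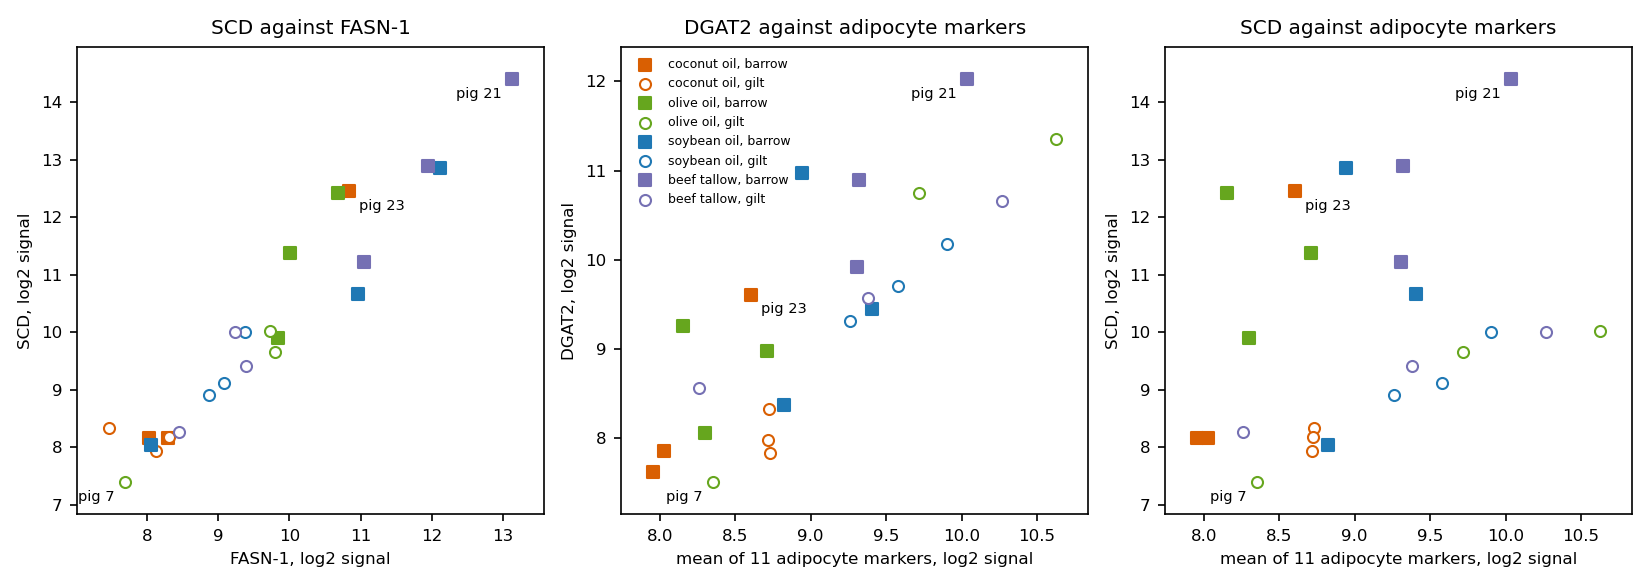
Log2 signals of single pigs: SCD against FASN-1, DGAT2 against the mean of 11 adipocyte markers, and SCD against that mean (colours mark the fat, filled squares barrows and open circles gilts). SCD and FASN-1 fall along 1 line in both sexes (r = 0.961), whereas against the adipocyte mean most barrows lie above the gilts for SCD.

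Other genes of the same pathways were taken from 3 lists. The list of fatty acid synthesis held 16 tested genes, among them genes of NADPH supply, citrate export, acetate activation and sterol-responsive transcription. Of these 16, 1 fell and 0 rose with coconut oil against beef tallow. It was PGD, an NADPH-making enzyme of the pentose phosphate pathway, at -0.99 ± 0.24 (limma adjusted p = 0.0483). The next smallest p were those of TKT and TALDO1 of the same pathway and SLC25A1, the mitochondrial citrate carrier, at -1.20 ± 0.32, -0.55 ± 0.18 and -0.64 ± 0.20, which did not pass (limma adjusted p from 0.0601 to 0.0925). The median of the list was -0.06. In barrows alone PGD, TKT and TALDO1 fell, by 1.49, 1.77 and 1.00 on the log2 scale (limma adjusted p from 0.0358 to 0.0451, n = 3 per fat). ACACA, an acetyl-CoA carboxylase, and SREBF1, a transcription factor of lipogenic genes, lay under the signal filter.

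Of 8 tested genes of elongation, desaturation and fatty acid activation, 0 were called between coconut oil and beef tallow, with a median of -0.27 and 5 at an unadjusted p under 0.05. HACD3, a dehydratase of elongation, and FADS1, the delta-5 desaturase, had differences of -0.52 ± 0.14 and -0.50 ± 0.17 (limma adjusted p = 0.0647 and 0.111), and ACSL3 and ACSL1, which activate fatty acids, had -0.55 and 0.45. In barrows alone both HACD3 and FADS1 fell, by 0.80 and 1.15 (limma adjusted p = 0.044 and 0.0308). Of 10 genes of triglyceride synthesis 0 were called, 4 of them at an unadjusted p under 0.05, with a median of 0.18. The smallest p there belonged to AGPAT1, an acyltransferase, at -0.70 ± 0.23, and GPD1, which makes glycerol 3-phosphate, at 0.45 ± 0.17 (limma adjusted p = 0.0971 and 0.142).

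Between the sexes 1 of the 16 synthesis genes rose in barrows and 1 fell. INSIG1, which holds sterol-responsive transcription factors back in the endoplasmic reticulum, rose by 0.77 ± 0.22, and ME3, a mitochondrial malic enzyme, fell by 0.66 ± 0.16 (limma adjusted p = 0.0472 and 0.019). Of the 8 genes of elongation and activation, HSD17B12, the ketoreductase of elongation, rose by 0.82 ± 0.16 (limma adjusted p = 0.00658). Of the 10 triglyceride genes, GPD1 rose by 0.65 ± 0.12 and GPAM, the mitochondrial acyltransferase that starts glycerolipid synthesis, fell by 0.70 ± 0.15 (limma adjusted p = 0.00475 and 0.0117). The medians of the 3 lists were -0.05, -0.05 and -0.25, against -0.02 over all tested probe sets.

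**Figure D5:**
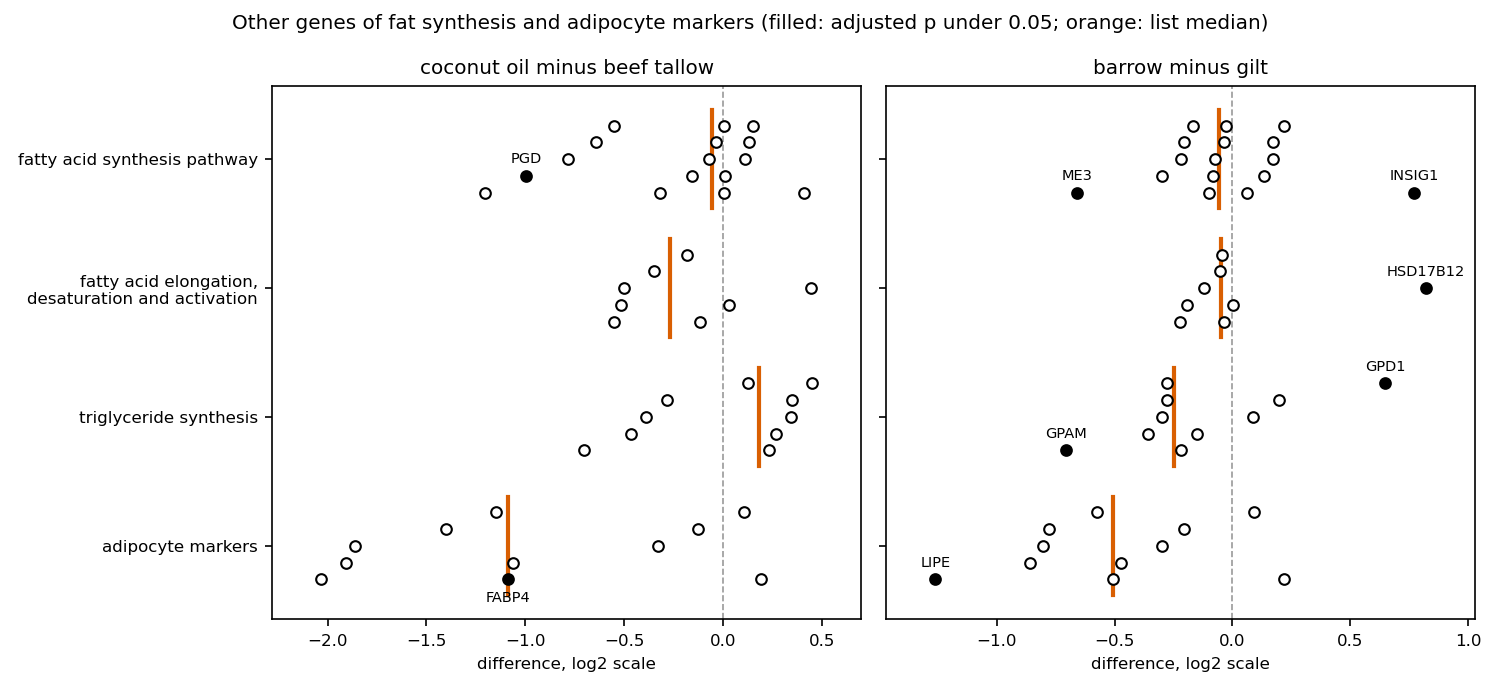
Differences on the log2 scale of the other tested genes of 3 pathway lists and of the adipocyte markers, 1 point per gene, for coconut oil minus beef tallow (left) and barrow minus gilt (right). Filled points with names passed an adjusted p of 0.05, and the orange bars are list medians, for instance -0.06 and -0.05 for fatty acid synthesis.

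Among tested genes with a symbol that are not of the 7, those whose log2 signal most resembled each gene over the 24 pigs were found by Pearson r, as a description. For FASN-1 they were PSPH (0.821), HSD17B12 (0.773), SH3KBP1 (0.772), CMTR2 (0.755), ALDH1L1 (0.745), UNC5B (0.738), ATP6V1A (0.728), CKB (0.716), GTF2H3 (0.706) and TALDO1 (0.688). PSPH is the phosphatase that ends serine synthesis. For SCD they were PSPH (0.864), HSD17B12 (0.75) and INSIG1 (0.742). DGAT2 and ELOVL6-1 shared their closest genes. These were ALDOC, a glycolytic aldolase (0.951 and 0.881), TKT (0.918 and 0.875) and CDO1, a cysteine dioxygenase (0.917 and 0.897). The closest to ME1-1 were GLO1 (0.821), PCYOX1 (0.805) and UBE2E3 (0.795), those to SCD5 C4H1orf54 (0.89), ITIH5 (0.878) and PACSIN2 (0.831), and those to MID1IP1 HIVEP2 (0.884), SYNCRIP (0.837) and REV1 (0.806). Over all other tested probe sets, the 95th percentile of r ran from 0.441 for SCD to 0.609 for DGAT2.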

How the data were processed

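Total RNA of each muscle was hybridised to 1 one-colour Affymetrix porcine array, per the labels. The deposited values are linear probe set intensity values; neither labels nor table name the summarisation method. On every array the mean without the top and bottom 2% lay between 500.1 and 500.2, so arrays had been scaled to a common trimmed mean and not quantile normalized. Of 24123 probe sets, 124 controls were left out, and 14399 of the other 23999 with a mean log2(signal + 1) at or above the 40th percentile were tested. Symbols came from the platform annotation: 10069 probe sets had 1, 198 several and 13732 none. RefSeq (Sscrofa11.1) held 9961 of those with 1 and all 7 genes.

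Differences were fitted with limma 3.58.1 (R 4.3.3) on 8 group means, two-sided, with Benjamini-Hochberg adjustment over all tested probe sets. The fit was tested on simulated arrays with known changes. Correlations used 100000 permutations (smallest p 1e-05, scipy 1.17.1), and single array values used exact permutation within sex or fat. Groups were compared over pigs. No column of values was left unused and no 2 arrays were identical. The genes and lists were chosen with earlier results of these data known. Named are all members, every list gene past the threshold, the 4 smallest p of the pathway lists, 3 bright markers and the closest genes (10 for FASN, 3 for each other gene).

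The alternatives were no signal filter, a 60th percentile filter, quantile normalization, median centring, a pseudocount of 16, dim signals set to the filter level, an additive model, trended and robust spread, array weights, arrays of the 2 fats alone and leaving out each pig. Leaving out pigs 11, 12 and 16 together was added after seeing the data.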

Additional observations from a re-analysis of the deposited data

Results flagged for a closer look

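In each fat, every probe set was checked for a pig far from the other 5, by the gap to its nearest neighbour over the whole range. Of 56 groups of 6 pigs, 9 held such a pig. The check flags about 1 in 20 groups of like, independent values. Here each group mixes barrows and gilts and the probe sets are related over the pigs. The 9 of 56 therefore cannot be set against that rate.

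With coconut oil, pig 23 stood above the others for 5 probe sets. Its signal was 5595.7 for SCD, where the other 5 lay from 242.9 to 321.1, and 1829.8 for FASN-1, where they lay from 176.8 to 315.5. It was 489.6 for FASN-3 (the others from 32.6 to 83.7), 1649.9 for ELOVL6-1 (358.4 to 525.6) and 781.0 for DGAT2 (195.6 to 320.3). Without this pig the coconut oil minus beef tallow differences were larger for all 5, for instance -2.87 for SCD.

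With olive oil, pig 7 had 206.5 for FASN-1, below the other 5 at 847.0 to 1636.0. With soybean oil, pig 11 had 958.4 for ME1-1, below the others at 1795.1 to 2377.1. FASN-4, which was under the filter level, had 9.1 in pig 20 with coconut oil (the others from 42.7 to 95.8) and 8.1 in pig 4 with olive oil (56.8 to 62.3).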

How the results depend on the processing

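Coconut oil minus beef tallow called 161 probe sets, but 6 with no filter, 279 with the 60th percentile filter, 51 after quantile normalization, 246 with dim signals set to the filter level, 0 in the additive model, 1264 with array weights, 313 with the 2 fats alone, 260 without pigs 11, 12 and 16, and 0 to 664 without single pigs (0 without pig 6, 8, 16 or 21, and over 1.5 times fewer than 161 without 14 of 24 pigs). Of the 13, 0 were called, but 8 with array weights, 1 with the 2 fats alone and 0 to 4 without single pigs (3 without pig 2 or 7, 4 without pig 12, 1 without pig 23 or 24). Lower calls were 77% of calls, 38.4% after median centring and 70.6% after quantile normalization. In barrows the 298 calls became 0 with no filter, 91 after quantile normalization, 619 with array weights, 3 without pigs 11, 12 and 16, and 0 to 747 without single pigs. Of the 13, 2 were called there with the 60th percentile filter, 1 after centring, 1 with dim signals raised, 5 with array weights, 1 with the 2 fats alone and 0 to 3 without single pigs. Barrow minus gilt called 687, but 302 with no filter, 1530 with array weights, 416 without pigs 11, 12 and 16, and 386 to 1057 without single pigs. Its 5 members became 2 with no filter and 3 to 6 without single pigs. Comparisons that called 0 gave few calls elsewhere. Olive minus coconut oil gave 2 with no filter. Soybean minus coconut oil gave 3 with no filter, 5 with array weights, 33 with the 2 fats alone and 3 without pigs 11, 12 and 16. Coconut oil minus beef tallow in gilts gave 1 with no filter and 1 with array weights, and its difference between the sexes gave 1 with array weights. The test over the 4 fats gave 4 with no filter and 68 with array weights. Without single pigs, calls ran from 0 to 7 for olive oil minus beef tallow, 0 to 1 for soybean oil minus beef tallow, olive minus coconut oil, soybean minus olive oil, the unsaturated oils minus the others and the gilts, 0 to 4 for soybean minus coconut oil, 0 to 25 for the 4 fats and 0 to 2 for the interaction. The cause of these moves was not tested. No paired analysis was possible because the running numbers of the pigs are not shared between groups. Over 4874 refits of member differences, 43 gained and 21 lost a call, and none called in either fit changed sign. Of 585 refitted correlations 11 gained and 5 lost significance.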
